A study of Arabidopsis thaliana with 59 samples.

Results

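These 101 Arabidopsis thaliana loci made 22-nt small RNAs in abundance when the mRNA decay enzyme EIN5 and the Dicer-like enzyme DCL4 were both lost, and few when DCL2 was lost as well. They were chosen from the 32375 genes with values in the authors' table by the mean of 22-nt reads in each genotype. A chosen locus had at least 200 units in ein5-1 dcl4-2. Its ein5-1 dcl4-2 mean, plus 1, was at least 16 times the largest mean, plus 1, among Col-0, dcl4-2, ein5-1 and ein5-1 dcl4-2 dcl2-1. Its ski2-2 dcl4-2 mean, plus 1, was at most 2 times the largest, plus 1, among Col-0, dcl4-2 and ski2-2. A further 57 loci met the ein5-1 dcl4-2 criteria and exceeded the ski2-2 dcl4-2 limit. The mirrored rule, with ski2-2 in place of ein5-1, found 4 loci. Levels in the 7 genotypes that the rule used are a description and are given without a test. Tests were made in genotypes that the rule did not use.

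Small RNA was sequenced in 59 libraries from the aerial parts of untreated plants at 20 days, of which 6 were spent on MS medium and 14 in soil. The EIN5 group holds the double mutant ein5-1 dcl4-2, the triple mutants that add ago1-45, ago1-27 or dcl2-1 to it, the double mutant ein5-1 dcl2-1 and the single mutant ein5-1. The SKI2 group holds the same 6 combinations with ski2-2 in place of ein5-1. The dcl4-2 and dcl2-1 single mutants and the wild type Col-0 complete the 15 genotypes. All 8 double and triple mutants that include dcl4-2 thus carry the DCL4 mutation, those with ago1 included, and DCL4 is intact in ein5-1 dcl2-1 and ski2-2 dcl2-1. Each genotype had 4 libraries, except ski2-2 dcl4-2 ago1-27 with 3. Each mutation is represented by a single allele, apart from AGO1, for which the weak alleles ago1-45 and ago1-27 were used.

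EIN5 (XRN4) degrades decapped mRNA in the cytoplasm, starting at the 5′ end, and SKI2 is a helicase that threads mRNA into the exosome, which degrades it from the 3′ end. RNA that escapes decay can be copied into double-stranded RNA by RDR6 and cut into small interfering RNAs (siRNAs), 21 nt long from DCL4 and 22 nt long from DCL2. AGO1 binds microRNAs and siRNAs and acts on matching mRNA, and 22-nt small RNAs in AGO1 are known for setting off further rounds of siRNA production.

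The unit throughout is the authors' scaled value per gene, called TPM in their table. It is not divided by gene length, and its denominator is not stated. Values of single libraries were recovered from the deposited means for 98.03 to 99.89% of genes per genotype, and the libraries are named A to D without reference to the labels' numbering. A library held between 21765 and 270861 recovered reads, and 1 read was worth 0.3303 to 4.742 units, so a member below a few units rests on few reads. The library of 21765 reads, at 4.742 units per read, was library D of ski2-2 dcl4-2. Its libraries A to C had 1.111 to 1.46 units per read. In ein5-1 dcl4-2 the members' values were too high to be resolved, and 0 of 101 were recovered. Their ein5-1 dcl4-2 values are the authors' means, with no error here. At the mutated genes DCL2, DCL4, XRN4 and SKI2 the means lay between 0 and 6.083 units over all genotypes, and at AGO1 between 6.068 and 124.2 units. Small RNA reads at these genes do not check the genotypes, and they measure no mRNA, so the tissue was not checked by its markers. Fewer cells of a type and fewer reads per cell cannot be told apart in these bulk samples.

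Several of the loci are close relatives of each other, and a 22-nt read from a stretch that they share could come from either. How such reads were counted is not given in the sources used here. The longest shared runs between related members, all within coding sequence, are shown as examples of stretches whose reads cannot be told apart. In most pairs the run is only part of what they share. Capitals mark the identical run, with 15 flanking bases on each side, as RefSeq gives the transcripts for TAIR10.1.
HSC70-1: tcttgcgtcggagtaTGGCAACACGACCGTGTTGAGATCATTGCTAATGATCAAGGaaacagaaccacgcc
HSC70-3: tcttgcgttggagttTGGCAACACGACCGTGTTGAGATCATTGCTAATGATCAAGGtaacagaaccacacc
HSP70-4: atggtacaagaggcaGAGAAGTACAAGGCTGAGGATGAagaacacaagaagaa
HSP70-5: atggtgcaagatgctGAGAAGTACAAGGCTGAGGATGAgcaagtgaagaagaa
CYP79B2: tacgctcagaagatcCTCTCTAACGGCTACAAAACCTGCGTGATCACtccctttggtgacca
CYP79B3: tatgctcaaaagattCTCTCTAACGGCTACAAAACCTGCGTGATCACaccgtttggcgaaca
RGA1: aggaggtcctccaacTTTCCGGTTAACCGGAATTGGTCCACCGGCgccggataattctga
GAI: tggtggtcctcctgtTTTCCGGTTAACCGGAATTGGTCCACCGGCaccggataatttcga
ADC2: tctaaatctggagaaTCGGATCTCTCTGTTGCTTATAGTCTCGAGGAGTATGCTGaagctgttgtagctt
ADC1: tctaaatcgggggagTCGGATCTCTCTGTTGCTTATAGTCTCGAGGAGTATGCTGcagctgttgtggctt

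The identical run is 41 bases in HSC70-1 and HSC70-3, 23 in HSP70-4 and HSP70-5, 32 in CYP79B2 and CYP79B3, 30 in RGA1 and GAI and 40 in ADC2 and ADC1. Of the 2499 possible 22-nt words of HSP70-4, 2 occur in HSP70-5, and of the 2116 of CYP79B2, 23 occur in CYP79B3. HSC70-1 shares 126 of its 2534 words with HSC70-2 and 41 with HSC70-3, RGA1 shares 26 of 2301 with GAI, and ADC2 shares 61 of 2994 with ADC1. In these pairs most words are thus particular to each gene. HSP90-2, HSP90-3 and HSP90-4 are nearer copies, with an identical run of 152 bases, and their separate values are uncertain. The same holds for mtHSC70-2 and AT4G32208, which share 519 words, and 84.5% of the words of AT4G32208 occur in another transcript. Words found in other annotated transcripts, on either strand, also make up 80.3% of those of CWLP, 46.0% of those of APR2, 40.7% of those of AT1G06760 and 30.0% of those of BLH1, and the values of these loci are uncertain to that extent. Over all members, 15 of 101 (14.85%) share more than 10% of their words with another annotated transcript, against 19.81% of all protein-coding genes.

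**Figure D1:**
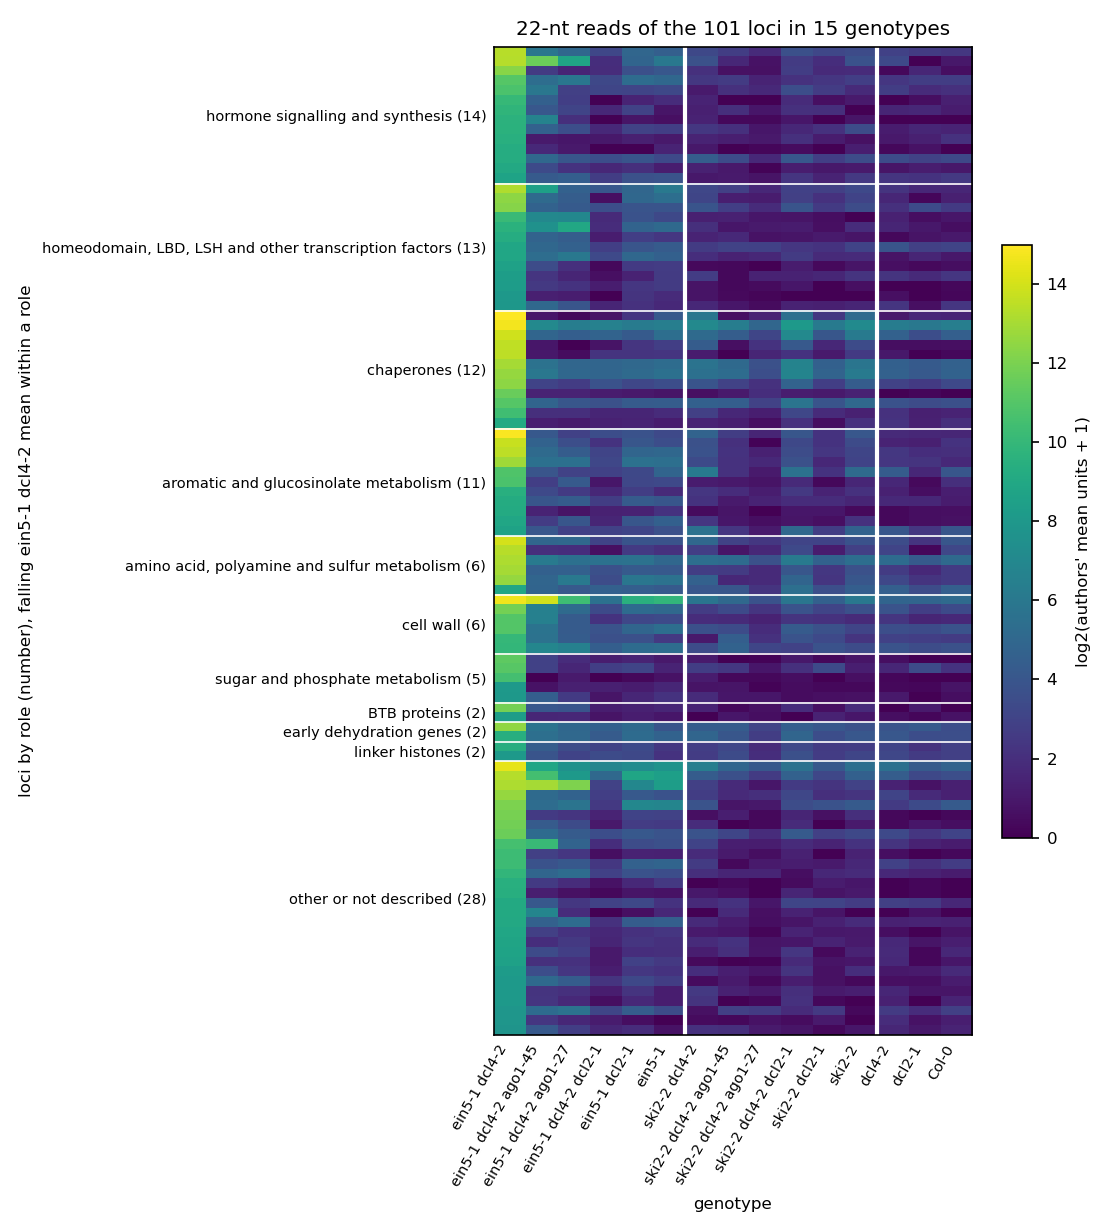
Mean 22-nt units of the 101 loci (horizontal lines, grouped by the role of the gene) in the 15 genotypes (columns), on a log2(units + 1) colour scale. The ein5-1 dcl4-2 column, with 212.6 to 35300.6 units, is the highest for each locus, and the ein5-1 dcl4-2 ago1-45 and ein5-1 dcl4-2 ago1-27 columns keep values of at least 100 units at 13 and 7 of the loci.

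The 101 loci together held 441169 units in ein5-1 dcl4-2, which was 23.14% of all 22-nt units of that genotype. Their median there was 1151 units and their range 212.6 to 35301 units. The medians in the ago1 triple mutants were 21.5 units in ein5-1 dcl4-2 ago1-45 and 11.33 in ein5-1 dcl4-2 ago1-27. In the rest of the EIN5 group the median was 3.379 units in ein5-1 dcl4-2 dcl2-1, 8.421 in ein5-1 dcl2-1 and 8.741 in ein5-1. In the SKI2 group the medians were 4.091 units in ski2-2 dcl4-2, 2.176 with ago1-45 added, 1.124 with ago1-27 added, 3.872 in ski2-2 dcl4-2 dcl2-1, 2.407 in ski2-2 dcl2-1 and 3.328 in ski2-2. Single mutants and the wild type had 2.401 units in dcl4-2, 1.833 in dcl2-1 and 2.056 in Col-0. Medians from 1.124 to 4.091 units are near the worth of 1 to a few reads, and their order is not resolved. The loci's share of all units was 11.54% in ein5-1 dcl4-2 ago1-45, 4.647% in ein5-1 dcl4-2 ago1-27 and 0.1213% in ski2-2 dcl4-2.

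By gene the group is made up of 12 chaperones and co-chaperones, 13 transcription factors of development and nitrogen response, 14 hormone genes, 11 genes of aromatic and glucosinolate metabolism, 6 of amino acid, polyamine and sulfur metabolism, 6 of the cell wall, 5 of sugar and phosphate metabolism, 2 BTB proteins, 2 early dehydration genes and 2 linker histones. The other 28 are of other or undescribed function. In ein5-1 dcl4-2 the chaperones summed to 129516 units and the aromatic and glucosinolate genes to 69596 units. These sums were 6.794% and 3.651% of the genotype's units.

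Among the chaperones, the heat-inducible cytosolic HSP70-4 (chromosome 3, 3991117 to 3993886, minus strand, TAIR10.1 RefSeq annotation) was the locus of highest value. It had 35301 units in ein5-1 dcl4-2, against 57.4 in ski2-2 dcl4-2, 17.2 in ein5-1 and 1.89 in Col-0. The constitutive HSC70-1 (chromosome 5, 553745 to 556623, minus strand) had 27760 units in ein5-1 dcl4-2, and 29.7 to 262.3 units in the other 14 genotypes. HSC70-1 was also the highest of the loci in Col-0, at 83.03 units, so its baseline differs from that of HSP70-4. HSC70-3 and HSP70-5 had 15530 and 11860 units in ein5-1 dcl4-2, and HSC70-2 had 5632. The members of the HSP90 family, which hold many signalling proteins in an active fold, were HSP90-1 (12020 units), HSP90-2 (7947), HSP90-3 (6269) and HSP90-4 (2150). BAG6, a co-chaperone, had 3101 units and mtHSC70-2, a mitochondrial HSP70, had 1371. In ein5-1 dcl4-2 dcl2-1 the means were 0.742 units for HSP90-1, 0.761 for HSP70-4 and 96.2 for HSC70-1.

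Of 13 genes on the HSP70 list 7 are members, and of 8 on the list of HSP90 genes and HSP101 4 are. The rule fixes the direction of the members. Of the list genes that are not members, 5 of 6 and 2 of 4 were higher in ein5-1 dcl4-2 than in Col-0 at an adjusted p below 0.05 in the authors' deposited table, where 21.1% of 20929 genes were. BIP1 and BIP2, which serve the endoplasmic reticulum, had 91.9 and 82.7 units there, and HSP101, a disaggregase, had 54.7.

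Small heat shock proteins, which are made on heating and are near absent otherwise, are not members. All 11 small heat shock genes on the fixed list, with the heat shock factor gene HSFA2, had between 4.458 and 34.42 units in ein5-1 dcl4-2. Their highest value in any of the other 14 genotypes was 1.372 units. HSP17.6A had 26.8, 23.9, 25.4 and 27.3 units in the ein5-1 dcl4-2 libraries A to D, and HSP18.2 had 31.2, 31.9, 38.1 and 36.4 units. Both genes were thus at a like level in all 4 libraries, and some others on the list were less even. HSP17.6A-CI had 1.487, 0, 16.35 and 0 units in libraries A to D, and HSP17.6II had 10.41, 23.92, 14.53 and 42.46. In Col-0 HSP17.6A and HSP18.2 had a mean of 0 units. In ski2-2 dcl4-2 the means were 0 for HSP17.6A and 0.348 for HSP18.2. The authors' deposited table calls 10 of these 12 genes higher in ein5-1 dcl4-2 than in Col-0, where 21.1% of genes were higher and 4.44% lower. Their part in the chaperone values was not tested.

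Genes for aromatic compounds came next. CYP79B2 and CYP79B3, which open the pathway from tryptophan to indole glucosinolates, had 30250 and 13940 units in ein5-1 dcl4-2. CYP79B2 (chromosome 4, 18525042 to 18527602, plus strand) had 16.3 units in ein5-1 dcl4-2 ago1-45, 10.7 in ein5-1 dcl4-2 dcl2-1, 26.5 in ski2-2 dcl4-2 and 2.06 in Col-0. CYP83B1, the following enzyme, is outside the rule with 264.2 units in ein5-1 dcl4-2. The indole glucosinolate list holds 8 genes that are not members. The authors' deposited table gives an adjusted p to 6 of these, and all 6 were higher in ein5-1 dcl4-2 than in Col-0, as were 21.1% of genes. CYP81F2 and MYB122, also on the list, had 0 units in every ein5-1 dcl4-2 library. The phenylpropanoid enzymes 4CL1, PAL1, 4CL2 and PAL2 had 11730, 1874, 565.5 and 397.5 units, and the arogenate dehydratases ADT4 and ADT5, which make phenylalanine, had 7342 and 594.0. PAL1 and PAL2 lie close to the rule's limit in ski2-2 dcl4-2, where they had 69.4 and 49.6 units.

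In amino acid, polyamine and sulfur metabolism, the arginine decarboxylases ADC2 and ADC1, which start polyamine synthesis, had 17098 and 7974 units in ein5-1 dcl4-2. ERD5, a proline dehydrogenase, had 10690 units, MTO3, an S-adenosylmethionine synthetase, 8957, and APR2, which reduces activated sulfate, 6374. Among cell wall genes, GAE6, an epimerase for pectin sugars, stood at 26730 units and had 925.3 units in ein5-1 alone, the highest ein5-1 value of the 101. Its value in ein5-1 dcl2-1, 737.7 units, was likewise the highest of the loci.

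Hormone genes included both gibberellin repressors of the DELLA family that are best known in growth control, RGA1 (RGA) and GAI, with 10580 and 2132 units in ein5-1 dcl4-2. The cytokinin response factors CRF2 and CRF3 had 10430 and 797.6 units. SMXL7, a strigolactone-pathway repressor, had 1748 units, and SMAX1, its relative in karrikin signalling, had 612.2. These are the 2 members among the 8 SMXL genes. The levels of SMXL7 were 1.11 units in ski2-2 dcl4-2, from 4 reads, and 3.19 in Col-0, and those of SMAX1 were 20.0 and 8.58 units. Among transcription factors, the homeodomain-leucine zipper genes HB5 and HB6 had 9348 and 4880 units in ein5-1 dcl4-2. LBD39, LBD41 and LBD37, of which LBD37 and LBD39 repress nitrogen responses, had 1151, 750.8 and 466.4 units. BLH1, a BEL1-like homeodomain gene, had 5578.

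The auxin genes DFL1 and PID, which conjugate auxin to amino acids and direct its transport, had 5063 and 1070 units in ein5-1 dcl4-2, against 0.492 and 1.51 in Col-0. PYL4, an abscisic acid receptor, had 417.9 units in ein5-1 dcl4-2, against 4.56 in Col-0. BR6OX2, the last enzyme of brassinosteroid synthesis, had 716.0 units in ein5-1 dcl4-2 and no more than 3.49 units in ein5-1 dcl4-2 ago1-45, ein5-1 dcl2-1 or Col-0. Hormone genes of several pathways were thus among the loci. The other transcription factors lay between 244.7 and 618.0 units in ein5-1 dcl4-2. They include GTL1, a trihelix factor of trichome growth, with 470.8 units, and LSH3 and LSH1 with 380.1 and 326.5.

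In the smaller groups, EXO, a cell wall protein tied to growth, had 2024 units in ein5-1 dcl4-2, and XTH9, which remodels xyloglucan, had 1018. TPPH, a trehalose phosphate phosphatase, had 2453 units in ein5-1 dcl4-2 and was listed at 0 in Col-0. DIN10, of the raffinose synthase family, had 2176. The BTB proteins BT2 and BT5 had 3714 and 325.9 units, and their relative BT1 is outside the rule with 67.85. ERD15 and ERD14, named for an early response to dehydration, had 5944 and 681.8 units. The linker histone genes AT2G30620 and AT1G06760 had 648.8 and 261.0 units. Among loci of other function, RBOH F, an NADPH oxidase of the plasma membrane, had 3910 units in ein5-1 dcl4-2. It had 0.555 units in ski2-2 dcl4-2, from 2 reads, and 0.236 in Col-0, from 1 read. The loci highest in ein5-1 dcl4-2 without a described role here were AT5G20700, AT4G32020, AT2G39870 and AT5G19090, with 22434, 10232, 9300 and 6216 units.

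Levels of different loci depend on transcript length. Per 1 kb of annotated transcript the members held 72.65 to 14160 units in ein5-1 dcl4-2, with a median of 639.3 units per kb. CYP79B2 then came ahead of HSP70-4, at 14160 and 14010 units per kb. Of the 10 members of highest value, 8 stayed among the 10 highest per kb.

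**Figure D2:**
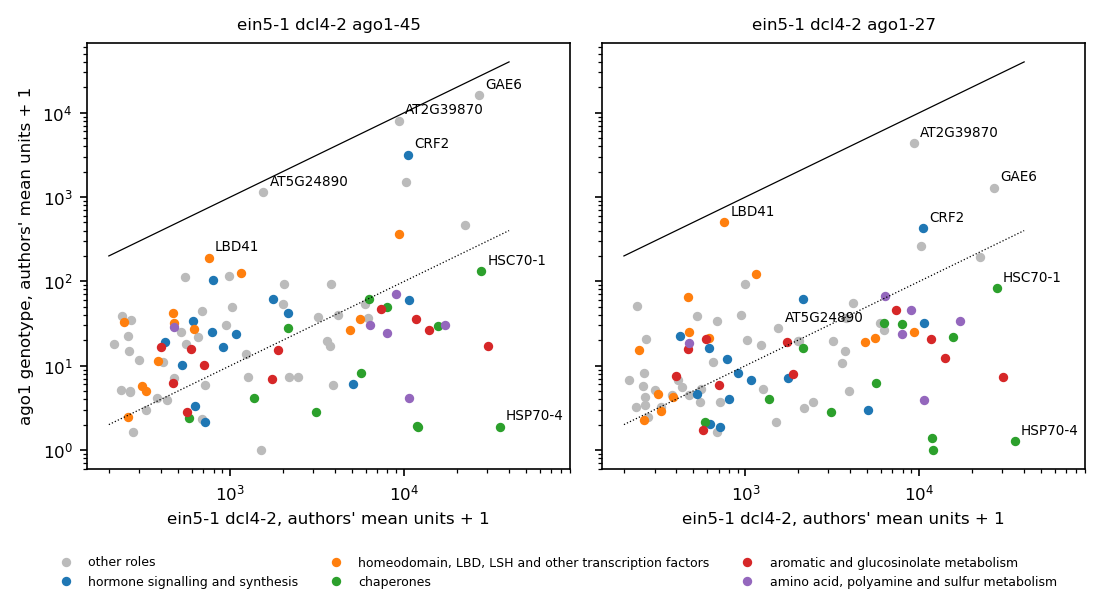
Mean 22-nt units + 1 of each locus in ein5-1 dcl4-2 (horizontal, log scale) against the same in ein5-1 dcl4-2 ago1-45 and in ein5-1 dcl4-2 ago1-27 (vertical, log scale), coloured by role. The solid line marks equal values and the dotted line 1% of the ein5-1 dcl4-2 value. AT2G39870 lies near the solid line in both panels, with 86.3% and 47.2% of its ein5-1 dcl4-2 value, and HSP70-4 far below the dotted line.

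In the ago1 alleles the loci kept a small part of their ein5-1 dcl4-2 value, with wide differences between loci. The median locus had 1.3% of its ein5-1 dcl4-2 value in ein5-1 dcl4-2 ago1-45 and 0.714% in ein5-1 dcl4-2 ago1-27, and 0.63% in ein5-1 alone. In ein5-1 dcl4-2 ago1-45 13 loci kept over 10%. They were GAE6, CRF2, AT4G32020, AT2G39870, AT5G24890, LBD39, CWLP, CRF3, LBD41, CYP78A5, AT4G16141, GNC and ATCTH. In ein5-1 dcl4-2 ago1-27 AT2G39870, LBD39, LBD41, LBD37 and ATCTH did. LBD41 kept 67.5% in ago1-27, the highest there. No locus kept over 5.05% in ein5-1. These shares contain the values that chose the loci and carry no test. The genotypes compared also differed in their total over all genes. It was 1906264 units in ein5-1 dcl4-2, 289411 with ago1-45 added, 188034 with ago1-27 added and 165791 in ein5-1.

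**Figure D3:**
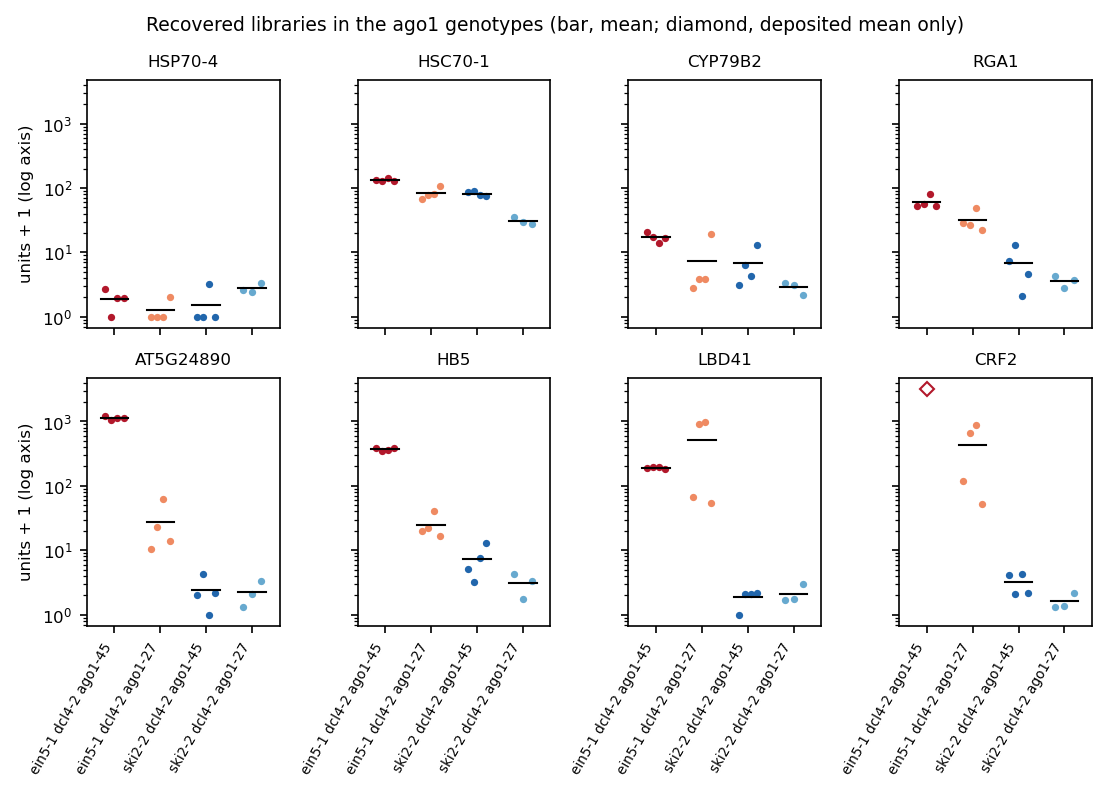
Recovered library values (points) of 8 loci in ein5-1 dcl4-2 and ski2-2 dcl4-2 plants that carry ago1-45 or ago1-27, on a log axis of units + 1; a diamond is a deposited mean whose libraries were not recovered. HB5 libraries lie at 347.1 to 383.7 units in ein5-1 dcl4-2 ago1-45, above every library of the other genotypes, while HSP70-4 is at or below 2.39 units in all 4 genotypes.

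The first test asked whether the loci differ between loss of EIN5 and loss of SKI2 in ago1-45, with DCL4 lost in both. Of 101 loci, 4 were not recovered (GAE6, CRF2, AT4G32020 and AT2G39870) and 7 fell below a mean of 1 unit (HSP70-4, HSP90-1, HSP70-5, PS2, AT4G32208, TPPE and OFP7), which left 90. In ein5-1 dcl4-2 ago1-45 75 of the 90 were higher than in ski2-2 dcl4-2 ago1-45 and 0 lower (limma, adjusted p below 0.05 over 14422 genes). Of all genes tested, 12.4% were higher and 3.79% lower. The filter took the mean over both genotypes, so a locus could pass through its ein5-1 dcl4-2 ago1-45 value alone. Those at 0 units in ski2-2 dcl4-2 ago1-45 were AT2G28510, TPPH, PID, MAKR5, AT2G21560 and AT3G22550, and all 6 were among the 75. At an unadjusted limma p below 0.05, 79 members were higher and 0 lower, against 4231 of the 14422 genes in either direction. For 73 of the 75 the libraries of the genotypes did not overlap, which held for 18.0% of all genes. The median log2 fold was 2.17 for the members tested and 0.35 for all genes. Quantile normalization brought the median of all genes to −0.06 and left 66 members higher and 0 lower, with a member median of 1.89. All genes were then split into 913 higher and 1012 lower, against 1787 and 546 on the deposited scale. Scaled to equal sums over annotated microRNA loci, the median of all genes was 0.48, with 77 members higher and 0 lower. Over all 101 loci, the mean was higher in ein5-1 dcl4-2 ago1-45 for 97, and those 4 that could not be tested for lack of library values had 32.7 units or less in ski2-2 dcl4-2 ago1-45.

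AT5G24890 had 1203, 1053, 1122 and 1142 units in ein5-1 dcl4-2 ago1-45, against 1.04, 3.28, 0 and 1.21 in ski2-2 dcl4-2 ago1-45. HB5 had 380.0, 347.1, 356.8 and 383.7 units in ein5-1 dcl4-2 ago1-45, against 4.16, 2.19, 6.62 and 12.1 in ski2-2 dcl4-2 ago1-45. In both loci every library of ein5-1 dcl4-2 ago1-45 was far above every library of ski2-2 dcl4-2 ago1-45. The limma log2 folds were 9.07 (SE 0.19, adjusted p = 8.7e-90) for AT5G24890 and 5.85 (SE 0.19, adjusted p = 6.4e-64) for HB5. AT5G20700 had 455.5, 475.3, 455.3 and 468.0 units in ein5-1 dcl4-2 ago1-45, against 23.9, 21.9, 35.3 and 31.4 in ski2-2 dcl4-2 ago1-45 (limma log2 fold 4.02, SE 0.11, adjusted p = 1.1e-70). LBD39 had 117.8, 128.2, 136.6 and 118.7 units in ein5-1 dcl4-2 ago1-45, against 2.08, 0, 3.31 and 1.21 in ski2-2 dcl4-2 ago1-45. LBD41 had 190.8, 197.1, 194.2 and 179.6 units in ein5-1 dcl4-2 ago1-45, against 0, 1.093, 1.103 and 1.21, or 3 reads in all, in ski2-2 dcl4-2 ago1-45. Both LBD genes were called higher, at limma adjusted p of 7.1e-42 and 5.4e-53, with no overlap between the genotypes.

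EXO had 86.3, 94.2, 95.7 and 94.2 units in ein5-1 dcl4-2 ago1-45, against 3.12, 2.19, 2.21 and 2.42 in ski2-2 dcl4-2 ago1-45 (limma log2 fold 4.76, SE 0.26, adjusted p = 1.6e-36). PID had 19.1, 28.8, 26.0 and 17.7 units in ein5-1 dcl4-2 ago1-45, against 0 in all 4 libraries of ski2-2 dcl4-2 ago1-45. It was called (limma adjusted p = 7.6e-16) and was at least 25.3-fold higher against a floor of 3 reads over the genotype. ADC2 had 35.7, 27.0, 23.2 and 32.4 units in ein5-1 dcl4-2 ago1-45, against 9.35, 1.093, 8.82 and 7.24 in ski2-2 dcl4-2 ago1-45. MTO3 had 67.2, 71.5, 77.1 and 66.7 units in ein5-1 dcl4-2 ago1-45, against 36.4, 37.2, 40.8 and 33.8 in ski2-2 dcl4-2 ago1-45. Both metabolic genes were higher in every library with EIN5 lost, by limma log2 folds of 2.22 (SE 0.32, adjusted p = 4.4e-09) for ADC2 and 0.91 (SE 0.16, adjusted p = 3.2e-06) for MTO3.

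The role groups differed in how many loci passed. All 12 transcription factors tested were higher in ein5-1 dcl4-2 ago1-45, as were 12 of 13 hormone genes, 10 of 11 aromatic and glucosinolate genes, 5 of 6 amino acid, polyamine and sulfur genes and all 5 cell wall genes tested, where 12.4% of all genes were higher and 3.79% lower. Of 9 chaperones tested 3 were higher, HSC70-1, HSP90-2 and HSP90-3. HSC70-1 had 133.6, 129.1, 140.3 and 126.6 units in ein5-1 dcl4-2 ago1-45, against 85.2, 87.4, 77.2 and 74.9 in ski2-2 dcl4-2 ago1-45. The HSC70-1 libraries did not overlap, and the limma log2 fold was 0.70 (SE 0.12, adjusted p = 5.8e-07), with 0.35 for the median of all genes. HSP70-4, with the largest value in ein5-1 dcl4-2, rested on 4 reads in ein5-1 dcl4-2 ago1-45 and 2 in ski2-2 dcl4-2 ago1-45. Whether role groups differ from each other was not tested.

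Summed over the loci recovered in each genotype, the libraries held 4667, 4556, 4684 and 4606 units in ein5-1 dcl4-2 ago1-45 (97 loci), against 597.6, 641.4, 625.1 and 615.7 in ski2-2 dcl4-2 ago1-45 (101 loci). The corresponding sums were 1857, 3182, 4870 and 2299 units in ein5-1 dcl4-2 ago1-27 (99 loci), against 291.0, 228.3 and 256.5 in ski2-2 dcl4-2 ago1-27 (101 loci). These sums leave out the loci not recovered, which held most of the units with EIN5 lost. Over all 101 loci the means summed to 33400 units in ein5-1 dcl4-2 ago1-45, of which GAE6 had 16090 and AT2G39870 8022. In ein5-1 dcl4-2 ago1-27 they summed to 8738 units, of which AT2G39870 had 4391 and GAE6 1295. On the recovered loci, the libraries with EIN5 lost were above those with SKI2 lost in either allele, and spread more widely in ago1-27.

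With ago1-27 the same question was asked on libraries of unequal depth. A read was worth 0.5946 to 1.057 units in ein5-1 dcl4-2 ago1-27 and 0.3303 to 0.3983 in ski2-2 dcl4-2 ago1-27, and the part of this in the folds of low loci was not tested. Of the 101 loci, GAE6 and AT2G39870 were not recovered, 9 fell below the filter and 90 were tested. In ein5-1 dcl4-2 ago1-27 69 were higher than in ski2-2 dcl4-2 ago1-27 and 1 lower (limma, 13454 genes, of which 24.0% were higher and 3.34% lower). The libraries did not overlap for 63 of the 70 called loci and for 36.6% of all genes. PID, AT1G60060 and LSH3 were called higher though at 0 units in ski2-2 dcl4-2 ago1-27. The median log2 fold was 1.99, or 2.08 with loci at 0 in a genotype set at their bound, against 0.62 for all genes. Under quantile normalization 53 loci were higher and 2 lower, with a member median of 1.63 and −0.04 for all genes. All genes were then split into 1212 higher and 1330 lower, against 3227 and 449 on the deposited scale. Of the 75 loci called with ago1-45 and the 69 called with ago1-27, 63 were shared, which is 84.0% and 91.3% of these counts.

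Libraries of ein5-1 dcl4-2 ago1-27 were uneven at some loci. LBD41 had 65.4, 918.9, 987.5 and 53.9 units in its libraries A to D, against 0.661, 0.720 and 1.99 in ski2-2 dcl4-2 ago1-27. CRF2 had 116.5, 660.4, 867.6 and 50.8 units, against 0.330, 0.360 and 1.195 in ski2-2 dcl4-2 ago1-27. Libraries B and C were thus far above A and D, and all 4 were above ski2-2 dcl4-2 ago1-27. LBD39, with 47.6, 177.1, 225.3 and 40.2 units in ein5-1 dcl4-2 ago1-27, had the same pattern. Of 51 loci with a mean of at least 10 units there, these 3 had B and C at least 3-fold above A and D, against 1 of 2692 genes that are not members (0.0371%). The reverse, A and D above B and C, was found at 0 of the 51 loci and 6 of the 2692 genes (0.223%). The pattern was noticed at these loci and then counted. The limma log2 folds were 6.88 (SE 0.60, adjusted p = 3.7e-10) for LBD41 and 7.26 (SE 0.53, adjusted p = 9.3e-12) for CRF2. Without libraries B and C, an alternative chosen after seeing the data, they were 4.89 and 5.62 and still called, and 59 of 80 loci tested were higher and 1 lower.

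GAI had 49.4, 42.1, 72.9 and 76.1 units in ein5-1 dcl4-2 ago1-27, against 1.65, 2.52 and 1.195 in ski2-2 dcl4-2 ago1-27. RGA1 had 27.95, 25.8, 47.9 and 21.2 units in ein5-1 dcl4-2 ago1-27, against 3.30, 1.80 and 2.79 in ski2-2 dcl4-2 ago1-27. For both DELLA genes the genotypes stood apart in every library, with limma log2 folds of 4.44 (SE 0.30, adjusted p = 1.2e-12) for GAI and 3.08 (SE 0.32, adjusted p = 1.7e-08) for RGA1. CYP79B2 had 1.78, 2.87, 2.88 and 17.98 units in ein5-1 dcl4-2 ago1-27, against 2.31, 2.16 and 1.195 in ski2-2 dcl4-2 ago1-27. A single library carried its mean, the genotypes overlapped, and CYP79B2 did not pass (limma adjusted p = 0.18). HSP90-1 had 0 units in all 4 ein5-1 dcl4-2 ago1-27 libraries, against 5.95, 2.16 and 2.79 in ski2-2 dcl4-2 ago1-27. It was the locus called lower (limma adjusted p = 0.0037), at least 4.58-fold lower against a floor of 3 reads over the genotype. Without library A of ski2-2 dcl4-2 ago1-27 it fell below the filter and was not tested. Of 10 chaperones tested 5 were higher, of 12 transcription factors 11, of 12 hormone genes 10 and of 3 sugar and phosphate genes 0, where 24.0% of all genes were higher and 3.34% lower. Of those 3, TPPH had an unadjusted p below 0.05 by limma.

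**Figure D4:**
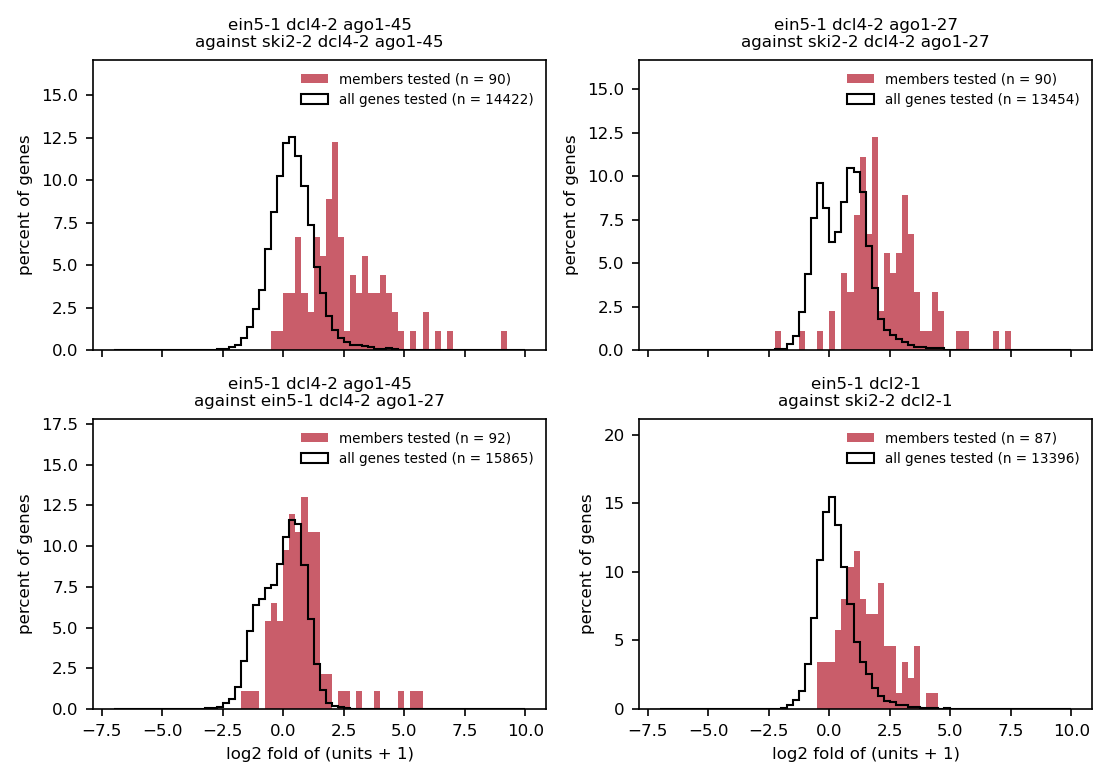
Share of loci by limma log2 fold in 4 comparisons, for the members tested and for all genes tested. In ein5-1 dcl4-2 ago1-45 against ski2-2 dcl4-2 ago1-45 the medians are 2.17 for members and 0.35 for all genes, and in ein5-1 dcl2-1 against ski2-2 dcl2-1 they are 1.39 and 0.20.

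Between the ago1 alleles in ein5-1 dcl4-2, part of the loci were higher with ago1-45. Of 92 loci tested, 41 were higher in ein5-1 dcl4-2 ago1-45 than in ein5-1 dcl4-2 ago1-27 and 4 lower (limma, 15865 genes, of which 6.32% were higher and 13.5% lower). Libraries did not overlap for 32 of the 45 called loci and for 20.7% of all genes. The median log2 fold was 0.72 for the members and 0.07 for all genes. Scaled to equal sums over annotated microRNA loci, 62 loci were higher and 0 lower, with a median of 1.41 against 0.60 for all genes, and all genes were split into 3624 higher and 551 lower in place of 1002 and 2140. Quantile normalization gave 48 loci higher and 3 lower, and 1373 and 1769 of all genes. The counts thus depend in part on the scale.

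AT5G24890 had 1203, 1053, 1122 and 1142 units in ein5-1 dcl4-2 ago1-45, against 9.51, 22.0, 62.3 and 12.7 in ein5-1 dcl4-2 ago1-27. CYP78A5, a cytochrome P450 gene known as KLUH that promotes organ growth, had 125.3, 110.8, 121.7 and 87.3 units in ein5-1 dcl4-2 ago1-45, against 0, 6.70, 1.92 and 2.12 in ein5-1 dcl4-2 ago1-27. CRF3 had 101.2, 104.6, 112.4 and 94.2 units in ein5-1 dcl4-2 ago1-45, against 1.19, 2.87, 4.79 and 3.17 in ein5-1 dcl4-2 ago1-27. In all 3 loci the alleles did not overlap. The limma log2 folds were 5.72 (SE 0.21, adjusted p = 3.3e-49) for AT5G24890, 5.26 (SE 0.32, adjusted p = 1e-28) for CYP78A5 and 4.78 (SE 0.29, adjusted p = 7.4e-29) for CRF3. SMXL7 had 68.9, 55.8, 52.97 and 63.8 units in ein5-1 dcl4-2 ago1-45, against 2.97, 5.74, 9.59 and 6.34 in ein5-1 dcl4-2 ago1-27 (limma log2 fold 3.18, SE 0.29, adjusted p = 9.1e-17). HB5 also differed, by a limma log2 fold of 3.96 (SE 0.20, adjusted p = 2.6e-36).

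APR2, MYB4, UGT73B2 and LBD37 were lower in ein5-1 dcl4-2 ago1-45. MYB4 encodes a repressor of phenylpropanoid genes and UGT73B2 a flavonoid glucosyltransferase. APR2 had 24.1, 34.0, 30.7 and 27.5 units in ein5-1 dcl4-2 ago1-45, against 56.5, 45.0, 107.4 and 56.0 in ein5-1 dcl4-2 ago1-27. The limma log2 fold of APR2 was −1.09 (SE 0.24, adjusted p = 2.4e-04), and those of MYB4, UGT73B2 and LBD37 were −1.52, −1.38 and −0.60. The LBD37 and UGT73B2 libraries overlapped between the alleles. On the microRNA scale none of these 4 passed, and LBD37 changed direction and also lost its call (limma adjusted p = 0.047) under several other settings. LBD41 and LBD39 did not pass between the alleles (limma adjusted p = 0.47 and 0.2), and without libraries B and C of ein5-1 dcl4-2 ago1-27 they were higher in ein5-1 dcl4-2 ago1-45, by 1.66 and 1.496 in log2.

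**Figure D5:**
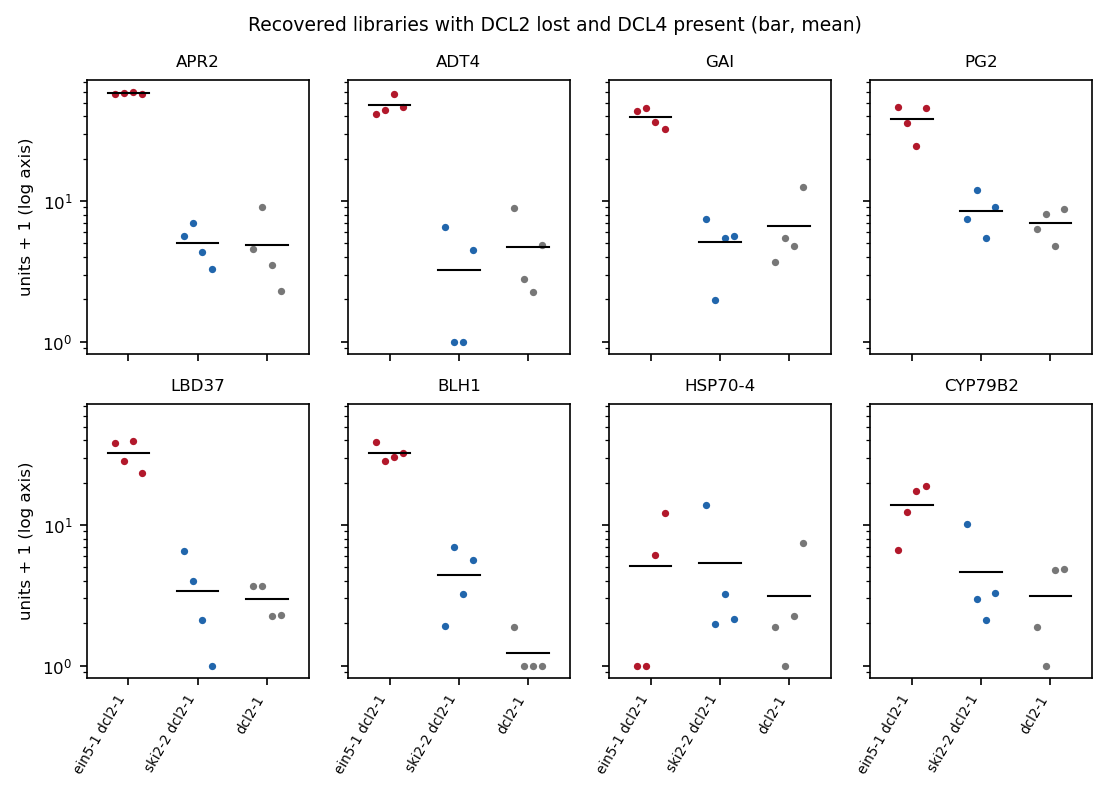
Recovered library values (points) of 8 loci in ein5-1 dcl2-1, ski2-2 dcl2-1 and dcl2-1, on a log axis of units + 1. APR2 lies at 56.9 to 58.2 units in ein5-1 dcl2-1, above the 5.95 and 8.05 units that the highest ski2-2 dcl2-1 and dcl2-1 libraries reach, and HSP70-4 overlaps between all 3 genotypes.

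With DCL2 lost and DCL4 present, many of the loci had somewhat more 22-nt reads when EIN5 was lost, with a median of 8.421 units in ein5-1 dcl2-1, against 2.407 in ski2-2 dcl2-1 and 1.833 in dcl2-1. Of 101 loci, 6 were not recovered and 8 fell below the filter. In ein5-1 dcl2-1 46 of the other 87 were higher than in ski2-2 dcl2-1 and 0 lower (limma, 13396 genes, of which 5.88% were higher and 0.746% lower). At an unadjusted limma p below 0.05, 57 were higher and 0 lower, against 2411 of the 13396 genes in either direction. The median log2 fold was 1.39 for the members and 0.20 for all genes. Libraries did not overlap for 41 of the 46 and for 11.0% of all genes. AT2G28510, BHLH32 and OFP7 were called though at 0 units in ski2-2 dcl2-1, so they passed the filter through ein5-1 dcl2-1 alone. Under quantile normalization 38 were higher and 0 lower, and all genes had a median of −0.09 and were split into 510 higher and 185 lower in place of 788 and 100. On the microRNA scale the median of all genes was 0.31, with 46 loci higher and 0 lower. Against dcl2-1, a comparison added after seeing the data, 53 of 85 loci were higher in ein5-1 dcl2-1 and 0 lower, where 7.52% of 13092 genes were higher and 1.42% lower. Libraries did not overlap for 49 of the 53 and for 13.9% of all genes. Of 101 loci, 5 were not recovered here and 11 fell below the filter, and 8 of those tested had 0 units in dcl2-1. Quantile normalization left 39 loci higher and 0 lower, with all genes split into 627 and 335 in place of 985 and 186, and the microRNA scale gave 60 and 0, with all genes split into 1344 and 80. ski2-2 dcl2-1 against dcl2-1, also added, had 0 of 64 loci higher and 0 lower by limma, where 0.194% of 11323 genes were higher and 0.124% lower. In this comparison 1 locus was not recovered and 36 fell below the filter, so the 64 are not the same set as the 85. With so few genes called, 0 of 64 does not set the loci apart from other genes. At an unadjusted limma p below 0.05, 4 of the 64 were higher and 0 lower, against 822 of the 11323 genes in either direction. The libraries of 4.42% of all genes did not overlap. These 3 comparisons share libraries.

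APR2, which shares 46.0% of its words with other transcripts, had 56.9, 57.8, 58.2 and 57.0 units in ein5-1 dcl2-1, against 4.61, 5.95, 3.37 and 2.30 in ski2-2 dcl2-1 and 3.55, 8.05, 2.51 and 1.29 in dcl2-1. ADT4 had 40.8, 43.6, 57.2 and 45.8 units in ein5-1 dcl2-1, against 5.53, 0, 0 and 3.45 in ski2-2 dcl2-1 and 7.99, 1.79, 1.254 and 3.87 in dcl2-1. In both loci ein5-1 dcl2-1 stood apart in all libraries and the other genotypes overlapped. The limma log2 folds of ein5-1 dcl2-1 over ski2-2 dcl2-1 were 3.59 (SE 0.30, adjusted p = 2.6e-25) for APR2 and 4.35 (SE 0.38, adjusted p = 3.7e-23) for ADT4. GAI had 42.7, 44.6, 35.7 and 31.3 units in ein5-1 dcl2-1, against 6.45, 0.991, 4.49 and 4.60 in ski2-2 dcl2-1 (limma log2 fold 3.08, SE 0.33, adjusted p = 8.2e-16). PG2, a cell wall gene, and LBD37 were higher by limma log2 folds of 2.18 (SE 0.29) and 3.54 (SE 0.40), at adjusted p of 1.4e-10 and 8.1e-15.

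By role, 11 of 13 transcription factors, 6 of 12 hormone genes, 7 of 11 aromatic and glucosinolate genes, 5 of 6 amino acid, polyamine and sulfur genes and 3 of 5 cell wall genes were higher in ein5-1 dcl2-1 than in ski2-2 dcl2-1, where 5.88% of all genes were higher and 0.746% lower. Of 11 chaperones 0 passed by limma, and HSP70-5, HSP90-2 and HSP90-3 had an unadjusted p below 0.05. HSP70-4 had 0, 0, 5.10 and 11.2 units in ein5-1 dcl2-1, against 12.9, 0.991, 2.25 and 1.15 in ski2-2 dcl2-1. The genotypes overlapped (limma adjusted p = 0.82). In both comparisons with the ago1 alleles and in this one 41 loci were higher, and 19 were higher in none of the 3. Of the 46 loci higher in ein5-1 dcl2-1, 43 (93.5%) were also higher with ago1-45, which is 57.3% of those 75. The 19 include 7 chaperones, HSP70-4, HSP90-1, HSP70-5, HSC70-2, BAG6, mtHSC70-2 and HSP70-18, of which HSP90-1 was called lower with ago1-27. Of the 19, 8 were tested in all 3 comparisons, 5 in 2 of them, and HSP70-4 only in the dcl2-1 plants. The other 5 were tested in none. PS2, AT4G32208 and TPPE lay below the filter, and the libraries of GAE6 and AT2G39870 were not recovered. The means of GAE6 and AT2G39870 were 16090 and 8022 units in ein5-1 dcl4-2 ago1-45, against 32.7 and 2.48 in ski2-2 dcl4-2 ago1-45.

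The authors' deposited table gives DESeq2 folds for ein5-1 dcl4-2 and ski2-2 dcl4-2. All 101 loci were higher in ein5-1 dcl4-2 than in Col-0, ein5-1, dcl4-2 and ein5-1 dcl4-2 dcl2-1, which the rule fixes. The backgrounds in the authors' deposited table are 21.1%, 21.9%, 19.7% and 16.7% of genes higher and 4.44%, 4.69%, 4.78% and 4.02% lower. The median log2 folds of the loci in the authors' deposited table were 8.88, 7.02, 8.72 and 8.22, against 0.93, 0.88, 0.91 and 0.62 for all genes, and these 4 comparisons share the ein5-1 dcl4-2 libraries.

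Despite the limit in the rule, some loci were higher in ski2-2 dcl4-2 than in Col-0. The authors' deposited table gives an adjusted p to 79 loci here, of which 19 were higher in ski2-2 dcl4-2 than in Col-0 and 2 lower, where 8.13% of genes were higher and 7.74% lower. The rule used these values, so the counts are a description. Those higher include HSP70-4, HSP90-1, CYP79B2, CYP79B3, 4CL1, APR2, PAL1 and PAL2. In the authors' deposited table the log2 folds were 4.48 for HSP70-4, 4.40 for HSP90-1 and 3.26 for CYP79B2. Against ski2-2 these loci had log2 folds of 0.48, 0.73 and 0.67 there, and none was called. Against ski2-2 dcl4-2 dcl2-1 they had 0.30, 0.12 and 0.91, again with none called. The name "only with EIN5 lost" therefore holds for the large values and not for every change from Col-0. Against ski2-2, 5 of 81 loci were higher and 4 lower in the authors' deposited table (7.28% and 7.32% of genes), and against dcl4-2 16 of 74 were higher and 4 lower (10.4% and 9.64% of genes). Against ski2-2 dcl4-2 dcl2-1, 3 loci were higher in ski2-2 dcl4-2 (AT5G20700, ADC2 and PAL2) and 10 lower, where 7.3% and 8.93% of genes were, per the authors' deposited table. The 10 include HSC70-1, HSC70-3, HSP90-2, HSP90-3 and HSP90-4. HSC70-1 had 134 units in ski2-2 dcl4-2 and 262.3 in ski2-2 dcl4-2 dcl2-1.

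The loci lie on all 5 chromosomes, with 19, 24, 18, 16 and 24 on chromosomes 1 to 5, and all 101 are protein-coding in RefSeq TAIR10.1. Their median transcript was 1987 bases with 2 exons, against 1505 bases and 4 exons over 26687 protein-coding genes. Of the 57 loci that exceeded the ski2-2 dcl4-2 limit, the 56 that are protein-coding had a median transcript of 2574 bases, also with 2 exons. Median 5′ and 3′ untranslated lengths of the members were 270 and 308 bases, against 146 and 226 over all protein-coding genes. Those 56 loci had 252.5 and 332 bases. In 49 loci with a mirrored rise in ski2-2 dcl4-2 they were 298 and 262 bases, so long untranslated regions were not particular to the members. The GC content of the members, 41.58%, was near the 41.4% of all protein-coding genes. These are descriptions of a group chosen by reads per gene, which favours longer transcripts.

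A site for an annotated microRNA of a conserved family was found in 1 of the 101 transcripts (0.9901%). Such sites are a common starting point of siRNA production. They were found in 0 of those 56 loci above the ski2-2 dcl4-2 limit and in 0.5508% of all protein-coding genes. Among 49 loci with a mirrored rise in ski2-2 dcl4-2, whatever they did in ein5-1 dcl4-2, 13 (26.53%) hold such a site. Sites of 113 mature microRNAs of 37 families were sought by complementarity, with a penalty of at most 3. All annotated mature strands of a family were searched, and whether each strand is itself conserved was not checked. The 1 site is in the coding sequence of ADC1, from base 1781 of 2917, and is shown with its microRNA, with bases 2 to 8 of the microRNA and the bases that face them in capitals.
miR172b-5p: gCAGCACCauuaagauucac
ADC1 site: gagaatctttatGGTGCTGc

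The site is a match of letters with mismatches outside the capitals. Its penalty of 3 is the largest allowed, and no cleavage was measured. ADC2, in which no site was found, had 17098 units in ein5-1 dcl4-2 and ADC1 had 7974. Whether the site has a part in these values was not tested. In the 250 bases before the transcript start, a heat shock element was searched on both strands (GAANNTTCNNGAA and TTCNNGAANNTTC). It occurred in 0 of 101 loci and in 0.4159% of all promoters of this length. A motif this rare cannot set the loci apart from other genes, and shorter or more distant elements were not sought. The G-box CACGTG, which reads the same on both strands, occurred in 9 loci (8.911%) and in 6.723% of all promoters.

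At the edges of the rule, AT2G23120, AT2G20670 and ATCTH lie just inside the limit of 200 units in ein5-1 dcl4-2 with 212.6, 234.3 and 236.1 units. AT1G69580, AT5G47060 and MYC2 lie just outside with 192.0, 163.5 and 161.2 units. LBD37, UGT73B2 and MAT3 pass the 16-fold criterion with 19.05, 19.52 and 19.82, and UGT78D1, GRF5 and J11 miss it with 15.78, 15.39 and 13.31. ADC2, PAL2 and PAL1 are nearest inside the limit in ski2-2 dcl4-2, with ratios of 1.991, 1.936 and 1.907, and AT3G56360, CZF1 and LRR XI-23 exceed it with 2.09, 2.113 and 2.141. Outside the group, the profiles over the 15 genotypes most like the loci's median profile were those of the auxin-response repressors IAA2 (Pearson's r 0.981) and IAA18 (0.977), AT3G56360 (0.978), AT1G69580 (0.973) and BT1 (0.973), among 686 genes with at least 50 units in ein5-1 dcl4-2. These correlations of log2(mean + 1) share the 15 genotypes and are led by the ein5-1 dcl4-2 value.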

How the data were processed

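The authors used Bowtie 1.2.2 and SAMtools 1.9 with the TAIR10 genome, per the submitters' processing notes. RNA was taken with the miRNeasy mini kit, made into libraries with a NEBNext small RNA kit and read on an Illumina HiSeq instrument, per the labels' protocols. The deposited table holds, per gene and genotype, the mean over libraries of a scaled signal of 22-nt reads, called TPM per the file headers. Its columns do not share a total, and the denominator is not stated. The genes summed to 1906264 units in ein5-1 dcl4-2 and 967422 in ski2-2 dcl4-2. In every other genotype they summed to between 142140 and 289411 units. The deposited log2 folds and p-values of 8 comparisons are the authors', from DESeq2 per the submitters' processing notes. Whether strand was used, and how multiply mapping reads were shared out, is not given in the sources used here, so values of near copies and of overlapping genes are uncertain.

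Library values were recovered as whole reads times a step per library whose mean matches the deposited mean to its last digit. The recovery and the tests were checked on simulated data. limma 3.58.1 (R 4.3.3, trended prior) was fitted on log2(units + 1) for all genes with a mean of 1 unit or more over the libraries compared. Benjamini-Hochberg adjustment was over these genes, with a threshold of 0.05. Folds on this scale understate changes of low genes. The design text speaks of biological replicates without naming plants or pools, so p-values measure the spread between libraries. Alternatives were a pseudocount of 0.1, no filter, a mean of at least 5 units, quantile normalization, a scale from microRNA loci, and each library left out.

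The loci, gene lists, role groups and tests were chosen with earlier results of these data known. Any member may be named, first the 20 highest, those on the lists, those nearest a limit and up to 5 called loci per direction. All 101 IDs matched RefSeq TAIR10.1, which gave coordinates and sequences, and the files hold no coordinates. In the microRNA search a mismatch counts 1 and a G:U pair 0.5, doubled at bases 2 to 13 of the microRNA.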

Additional observations from a re-analysis of the deposited data

Results flagged for a closer look

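Among 81 sets of 4 libraries tested for a library far from the other 3 by Dixon's ratio, 15 had one, and chance alone marks about 1 set in 20. At levels of a few reads a single read can do this.

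In ein5-1 dcl4-2 ago1-27, library C had 301.0 units of AT5G20700 and 24.93 of MYB4, against at most 172.4 and 16.27 in the other 3. CYP79B2 had 17.98 units in library D there, against at most 2.876 in the others, and HSP70-4 had 1.057 in D against 0.

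In ein5-1 dcl4-2 ago1-45, RGA1 had 78.99 units in library C, GAI 51.02 in D and UGT73B2 9.956 in A, each above the other 3 libraries. In ski2-2 dcl4-2 ago1-45, GAI had 10.39 units in library A, HSP70-4 2.205 in C, CRF3 1.093 in B and LBD37 3.308 in C, and LBD41 was at 0.0 in A, with about 1 read in each of the others.

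In the dcl2-1 genotypes, ski2-2 dcl2-1 library A had 12.91 units of HSP70-4 and 9.219 of CYP79B2, against at most 2.246 and 2.301 in the other 3 libraries. BLH1 had 0.8877 units, a single read, in library A of dcl2-1 and 0 in the others.

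The change with EIN5 lost differed from the change with SKI2 lost, both with dcl2-1, at 46 of 87 loci tested (all higher in ein5-1 dcl2-1, as were 5.88% of all genes, with 0.746% lower), by the limma test of ein5-1 dcl2-1 against ski2-2 dcl2-1, which share dcl2-1 as their control.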

How the results depend on the processing

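Counts of loci higher with EIN5 lost stayed within 1.5 times the reported count under every alternative that was run, and no locus was called lower with EIN5 lost in ago1-45 or dcl2-1 plants under any of them. For the single locus called lower in ein5-1 dcl4-2 ago1-27 against ski2-2 dcl4-2 ago1-27, the count became 0 with a mean of at least 5 units, which removes low loci, and 2 under quantile normalization. Between ein5-1 dcl4-2 ago1-45 and ein5-1 dcl4-2 ago1-27, the microRNA scale gave 62 loci higher and 0 lower, and the log2 fold of LBD37 became 0.163. The cause of these changes was not tested. Allowing at most 1-fold in ski2-2 dcl4-2, a stricter rule, left 55 loci.

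Leaving out each library in turn gave 70 to 74 loci higher and 0 lower with EIN5 lost in ago1-45, and 61 to 71 higher and 0 to 1 lower in ago1-27, where HSP90-1, the locus called lower, fell below the filter without library A of ski2-2 dcl4-2 ago1-27. Between the ago1 alleles it gave 30 to 43 higher and 3 to 6 lower. In dcl2-1 plants it gave 37 to 45 higher against ski2-2 dcl2-1 and 45 to 51 against dcl2-1, with 0 lower, and 0 in either direction for ski2-2 dcl2-1 against dcl2-1. Over 30 folds of named loci, 384 alternative values kept direction and call, 12 lost the call and 1 reversed, all of these between the ago1 alleles, at LBD37, APR2, MYB4 and UGT73B2. HSP90-1 has no value without that library A or with a mean of at least 5 units.

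No paired analysis was possible because the deposited columns are means that carry no replicate number, and the recovered libraries cannot be tied to the labels' numbers. A library's reads limit loci below a few units, and ein5-1 dcl4-2 values of the loci have no error, since no library value was recovered for them.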
